A study of Glycine max with 2 samples.

Results

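The genes described here are 5 soybean (Glycine max) genes of isoflavonoid and glyceollin synthesis, CHR5, IFS2, IFR, CYP93A1 and G4DT. Their members on the array were all probe sets whose single annotated gene symbol was one of these 5. That rule found 8 probe sets among the 61035 in the table of values, or 5 genes among the 6031 with a probe set of their own. The genes had been picked with their higher signals on the salinity array known, so those ratios are a description with no test. Soybean seedlings of the cultivar Williams 82 received 150 mM NaCl (salinity) or water alone (mock) at 14 days of age. RNA taken at 1, 3, 6, 12 and 24 h was combined into 1 pool per treatment, and each pool was hybridised to 1 Affymetrix Soybean Genome Array. Both groups were raised in vermiculite at 25 °C under 16 h of light, and the labels name no organ. With 1 array per group there was no spread between replicates, so every difference below describes these 2 arrays, and a difference of at least 2-fold served as a fixed mark of size.

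Isoflavonoids are a legume branch of flavonoid metabolism. Phenylalanine is converted to coumaroyl-CoA, chalcone synthase and chalcone reductase together make a deoxychalcone, chalcone isomerase closes it to a flavanone, and isoflavone synthase then moves the aryl ring to give the isoflavone skeleton of daidzein. Isoflavones are stored as glucosides or carried on through isoflavone reductase to pterocarpans, which are hydroxylated and prenylated into glyceollins, the phytoalexins for which soybean is known in its defence against Phytophthora sojae.

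Signal on these arrays is the log2 of a MAS5 signal, which summarises a probe set from its perfect-match probes and their mismatch partners. A signal counted as above background where it passed the 95th percentile of the probe sets for Phytophthora sojae and soybean cyst nematode that the array also carries. That bound was 4.88 (salinity) and 4.94 (mock). All 8 probe sets of the 5 genes were above it on both arrays. Of the 8, 5 have the suffix _s_at, which marks probes shared between similar transcripts and so possible cross-hybridisation. They are the only sets of CHR5 and IFS2 and the brighter set of IFR, CYP93A1 and G4DT. The other 3, the dimmer sets of IFR, CYP93A1 and G4DT, end in _at, the plain suffix, and none has the suffix _x_at.

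All 8 probe sets were at least 2-fold higher on the salinity array, from 2.11-fold to 5.32-fold. Among 33784 soybean probe sets above the bound on at least 1 array, 4.33% were higher by 2-fold or more and 5.36% were lower by as much. Since the genes were chosen on this contrast, their count says nothing beyond the choice. The median log2 ratio of salinity over mock was 1.34 for the 8 sets, 1.73 for the 5 marked sets and 1.11 for the 3 plain ones, against a median of -0.0029 and an SD of 0.634 for all soybean probe sets that passed the bound on each array. In bulk RNA, more cells that express a gene and more RNA per cell cannot be told apart.

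**Figure D1:**
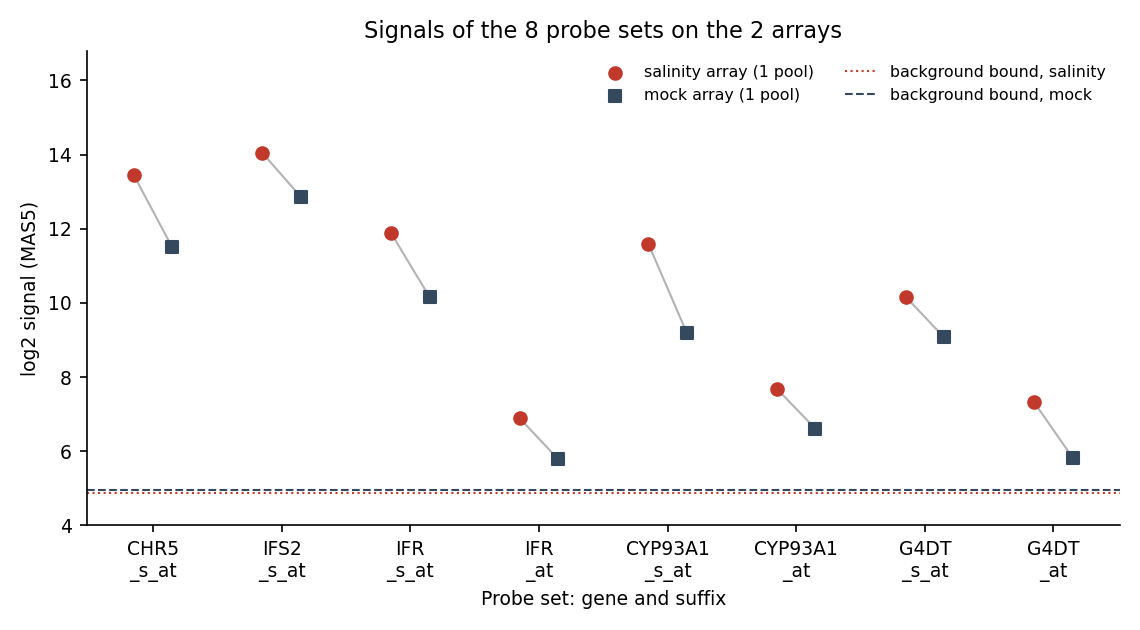
Log2 MAS5 signal of the 8 probe sets on the salinity array (red circles) and the mock array (dark squares), 1 array each, with the background bounds as horizontal lines at 4.88 and 4.94. Every probe set is higher on the salinity array, and the plain _at sets of IFR and G4DT lie closest to the bound on the mock array.

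CHR5 encodes a chalcone reductase, which acts with chalcone synthase to make the deoxychalcone from which daidzein and the glyceollins derive. Its probe set GmaAffx.92851.1.S1_s_at read 13.45 in log2 signal on the salinity array, against 11.50 on the mock array. In linear signal these are 11223 (salinity) and 2892 (mock), a 3.88-fold difference (log2 ratio 1.96). The ratio was passed by 358 of the 33784 soybean probe sets. No second set of CHR5 was available, so this value rests on probes shared with similar transcripts.

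IFS2 encodes an isoflavone synthase, the cytochrome P450 that commits a flavanone to the isoflavonoid branch. Its probe set Gma.2308.1.S1_s_at was bright on both arrays, reading 14.05 in log2 signal on the salinity array, against 12.86 on the mock array. The linear signals were 16926 (salinity) and 7416 (mock), a 2.28-fold difference (log2 ratio 1.19), and 1040 soybean probe sets had a higher ratio. The RefSeq table lists IFS1 as a synonym of IFS2 and IFS2 as a synonym of IFS1, so the names of this pair are open to exchange in older annotation. The values stand with the gene symbol of the platform's annotation.

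IFR encodes an isoflavone reductase, which reduces a hydroxylated isoflavone to the isoflavanone on the way to pterocarpans. Its brighter set, Gma.2686.1.S1_s_at, read 11.89 in log2 signal on the salinity array, against 10.16 on the mock array, a 3.31-fold difference (log2 ratio 1.73). Its plain set, GmaAffx.90339.1.A1_at, read 6.89 on the salinity array, against 5.78 on the mock array, a 2.15-fold difference (log2 ratio 1.11). Both sets were higher on the salinity array, and the plain one lay only 0.84 above the bound on the mock array. A further set whose ID shares its leading cluster number, Gma.2686.2.S1_s_at, has no gene assigned. It read 11.31 in log2 signal on the salinity array, against 9.67 on the mock array (3.12-fold), and it was chosen after its values were seen. The plain set of that number, Gma.2686.2.S1_at, also has no gene assigned. Its log2 signals of 0 (salinity) and 3.60 (mock) were below the bound, so no ratio could be given.

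CYP93A1 encodes a pterocarpan 6a-hydroxylase, a cytochrome P450 that makes glycinol, which is prenylated on the way to the glyceollins. The RefSeq table also calls the gene D6aH. Its brighter set, Gma.8425.1.S1_s_at, read 11.60 in log2 signal on the salinity array, against 9.19 on the mock array. The linear signals were 3106 (salinity) and 584 (mock), a 5.32-fold difference (log2 ratio 2.41), the highest of the 8. The plain set, GmaAffx.89060.1.S1_at, read 7.68 in log2 signal on the salinity array, against 6.60 on the mock array, a 2.11-fold difference (log2 ratio 1.08), the lowest of the 8. The gene thus holds both ends of the range, and the size of its difference depends on which probe set is read.

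G4DT encodes glycinol 4-dimethylallyl transferase, the prenyltransferase that adds a dimethylallyl group to glycinol in the last steps before glyceollin. Its brighter set, GmaAffx.90943.1.S1_s_at, read 10.17 in log2 signal on the salinity array, against 9.07 on the mock array, a 2.14-fold difference (log2 ratio 1.10). The plain set, GmaAffx.90946.1.S1_at, read 7.32 on the salinity array, against 5.82 on the mock array, a 2.82-fold difference (log2 ratio 1.50). Here the plain set gave the higher ratio, the reverse of IFR and CYP93A1, with its mock signal 0.88 above the bound.

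Probe sets of the same gene are the only repeat measurement on these arrays. The comparison covered 1618 genes with 2 or more sets that passed the bound on each array. Their log2 ratios of the brightest set and the next brightest differed with an SD of 0.418. That spread holds differences between probe sets and their measurement noise, and none between plants or replicate arrays. The 2 sets of G4DT differed by 0.40, within that SD, and those of IFR by 0.62. The 2 sets of CYP93A1 differed by 1.33, and 19 of the 1618 genes (1.17%) differed by more. Averaged over its sets, CYP93A1 had a log2 ratio of 1.75, IFR of 1.42 and G4DT of 1.30, so CHR5, with its single set at 1.96, then stood above CYP93A1. The order of the 5 genes by ratio therefore changes with the choice of probe set.

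**Figure D2:**
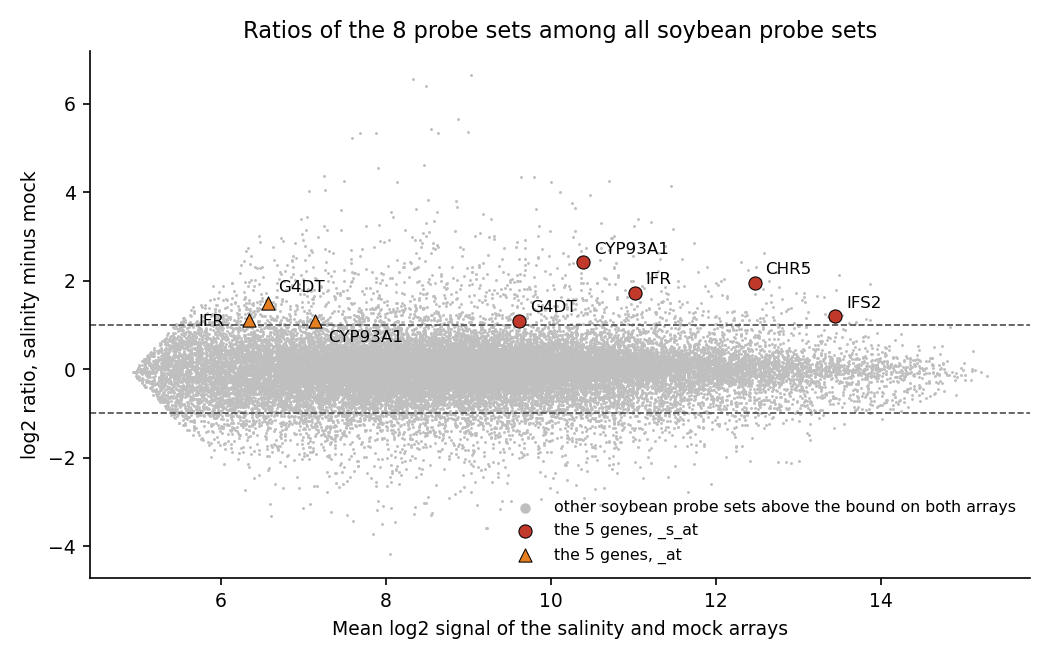
Log2 ratio (salinity minus mock) against the mean log2 signal of both arrays, for the 32113 soybean probe sets that passed the bound on each array (grey) and the 8 sets of the 5 genes (red circles _s_at, orange triangles _at). The dashed lines mark 2-fold, and all 8 sets lie above the upper one, CYP93A1 by its _s_at set the highest at 2.41.

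The suffixes and the brightness of the sets bear on how these ratios compare with the rest of the array. At least 2-fold higher were 6.57% of 3135 measured soybean sets ending in _s_at and 4.15% of 28811 ending in _at. In 3 equal groups by mean signal, log2 ratios had an SD of 0.682 among the dimmest and 0.573 among the brightest. The 3 plain sets of IFR, CYP93A1 and G4DT all fell in the dimmest group, where 4.96% of sets were at least 2-fold higher. The sets of CHR5, IFS2, IFR and CYP93A1 ending in _s_at fell in the brightest group, where 3.57% were, and the remaining G4DT set in the middle one.

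Each gene was next set beside its annotated relatives, which asks whether the difference was shared through the family. Since the 5 genes were picked for high ratios, a gap over their relatives is in part set by the choice and is given as a description. CHR1, a chalcone reductase gene with 2 sets, had log2 ratios of 0.82 and 0.75. CHR4 was at 0.47, reading 10.53 in log2 signal on the salinity array, against 10.06 on the mock array. CHR3 passed the bound only on the salinity array (log2 signal 5.64) and was at least 1.62-fold higher. The measured chalcone reductase genes were thus all higher on the salinity array, CHR1 and CHR4 by under 2-fold and CHR3 by a limit only. The log2 ratio of CHR5 was 1.14 above that of the brighter CHR1 set.

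In the isoflavone synthase pair, IFS1 read 13.30 in log2 signal on the salinity array, against 13.24 on the mock array, a log2 ratio of 0.06, against 1.19 for IFS2. Both values come from _s_at sets, so the probes of either may also bind transcripts of similar sequence.

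Among isoflavone reductase genes, IFR2 had 3 sets at log2 ratios of 0.23, 0.51 and 0.40. LOC547659, which carries GmIFR and IFR1 among its synonyms, was at 0.59. GmIFR is also a synonym of IFR, so that name does not tell IFR and LOC547659 apart. None of the IFR2 and LOC547659 sets reached 2-fold, and IFR stood 1.50 above the brightest IFR2 set and 1.14 above LOC547659. The plain IFR set, at 1.11, lies closer to them. All 4 sets of IFR1 were below the bound on both arrays, so no ratio could be given.

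The CYP93A genes went both ways. CYP93A2, which the RefSeq table also calls P6aH, read 11.05 in log2 signal on the salinity array, against 10.21 on the mock array (log2 ratio 0.84). CYP93A3 read 8.39 on the salinity array, against 9.92 on the mock array, 2.89-fold lower (log2 ratio -1.53). Against CYP93A2, the CYP93A1 ratio was higher by 1.57 with its _s_at set, and its plain set, at 1.08, was near it. Both CYP93A1 sets lay above 0 where CYP93A3 lay below, a gap of 3.94 for the _s_at set. For the prenyltransferase step, PT01, which carries the synonym G2DT-2, a glycinol 2-dimethylallyl transferase, read 12.14 in log2 signal on the salinity array, against 11.03 on the mock array. Its log2 ratio of 1.12 was within 0.02 of the brighter G4DT set. PT01 was added after its values were seen.

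**Figure D3:**
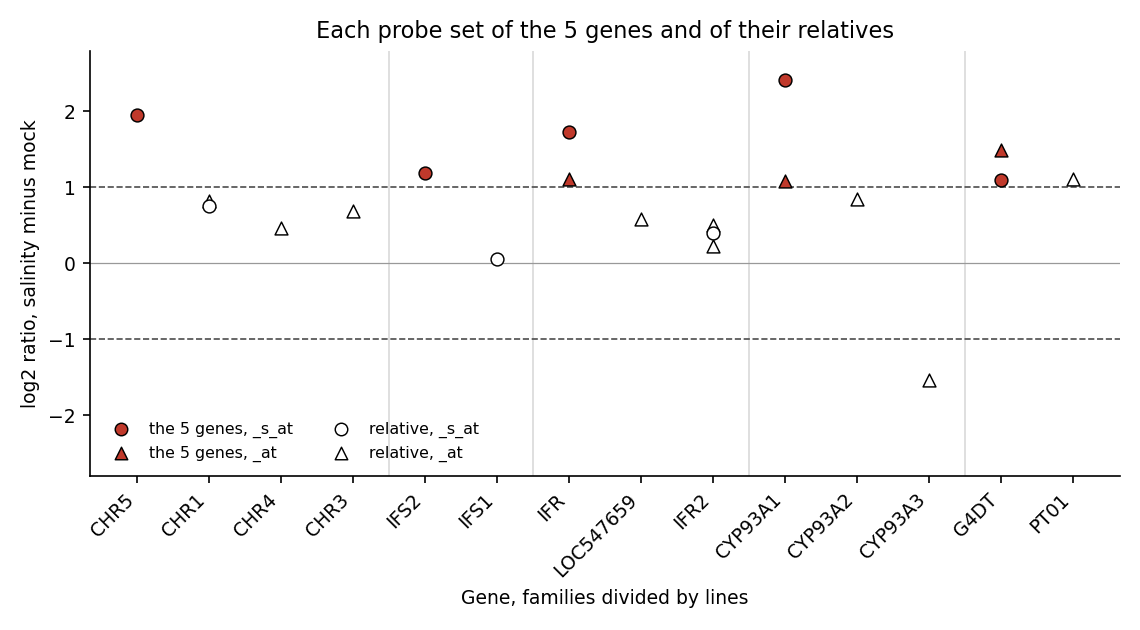
Log2 ratio (salinity minus mock) of every measured probe set of the 5 genes (red) and of their annotated relatives (white), circles for _s_at and triangles for _at sets, with dashed lines at 2-fold. The relatives lie between -1.53 (CYP93A3) and 1.12 (PT01), CHR3 is a lower limit, and IFS1 lies at 0.06 beside IFS2 at 1.19.

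The rest of the route was described from lists of symbols by role, 100 genes in the RefSeq table of which 47, the 5 included, have a probe set with a single gene on this array. Apart from the 5, 40 of 42 were measured, counting 1 gene by its brightest set. Of these 40, 28 lay above 0 and 12 below, where of all 5895 measured genes 2935 lay above 0 and 2960 below. The median log2 ratio was 0.38 for the 40, against -0.0033 for all measured genes. Past 2-fold, 5 of the 40 were higher and 5 were lower, where 5.02% of all genes were higher and 5.68% lower. The counts were equal in the 2 directions, and without marked probe sets 3 were higher and 5 lower.

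Genes of the entry steps, which turn phenylalanine into coumaroyl-CoA, lay above 0 in 7 of 7 cases (median log2 ratio 0.41). Apart from C4H (0.41) and PAL2.1 (0.37), all of them were 4CL genes, so the list is mostly of the same family. The lowest was 4CL1 at 0.34 and the highest 4CL3, a coumarate-CoA ligase gene, at 1.17 (2.25-fold). At the chalcone step, CHR5 left out, 7 of 10 lay above 0 (median 0.62). CHI1A, a chalcone isomerase gene, was highest at 1.04 (2.06-fold), and CHI3A1, of the same family by its name, was lowest at -1.37, with all 4 of its sets below 0 and signals on the salinity array near or under the bound. The measured sets of CHS1 pointed both ways, from -0.84 to 0.97, and its brightest was at -0.18. The brightest set of CHS8, a chalcone synthase gene linked to isoflavonoid synthesis, was at 0.90 and ends in _s_at. The sets of CHS8 ran from -0.05 to 1.16.

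At the isoflavone step, IFS2 and IFR left out, 8 of 9 measured genes lay above 0 (median 0.59). HIDH, the dehydratase that completes isoflavone formation after isoflavone synthase, read 13.50 in log2 signal on the salinity array, against 12.70 on the mock array (log2 ratio 0.80), and its 4 sets gave 0.80 to 1.11. IF7GT and IF7MaT, whose enzymes add glucose and malonate to isoflavones for storage, were at 0.53 and 0.97, with the 3 IF7MaT sets between 0.95 and 1.01.

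Those past 2-fold at this step were 2 genes known by locus number. LOC100789410 carries the synonym CYP81E10, of a P450 subfamily that holds isoflavone hydroxylases, and read 6.71 in log2 signal on the salinity array, against 5.12 on the mock array (3.01-fold), close to the bound on the mock array. LOC100813225 carries the synonym iomt2 and passed the bound only on the salinity array, with a log2 signal of 8.10, and was at least 8.91-fold higher. CYP81E11, of the same P450 subfamily, had 11.01 on both arrays.

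At the pterocarpan step, CYP93A1 and G4DT left out, 4 of 5 lay above 0 (median 0.31), CYP93A3 being the exception. PT01 is not matched by the lists of symbols, so it is left out of these counts and of those for the whole route. PTS1, a pterocarpan synthase gene that acts between IFR and CYP93A1, read 13.82 in log2 signal on the salinity array, against 12.26 on the mock array, a 2.94-fold difference (log2 ratio 1.55), from an _s_at set. PTS-L5 (0.31) and PTS-L4 (0.06), genes of like name, differed less. In the order IFR, PTS1, CYP93A1 and G4DT, each gene was at least 2-fold higher by its _s_at set. IFR, CYP93A1 and G4DT were picked with their higher signals known, so this run is in large part set by the choice. PTS1 was the highest of the PTS genes, and CYP93A2, also called P6aH, was at 0.84. Of the 4 genes in that order, PTS1 alone has no plain set beside its _s_at set.

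In the competing branches to flavonols, anthocyanins and tannins, most of the few measured genes lay below 0. Of 8 genes 7 were measured, 6 of them below 0 (median log2 ratio -0.88), where 2960 of all 5895 measured genes were. At least 2-fold lower were 3 of the 7, where 5.68% of all genes were. LAR1 passed the bound only on the mock array, so its ratio of -0.46 is a limit. DFR2 (-1.71) read 4.99 in log2 signal on the salinity array, close to the bound. ANS2, for anthocyanidin synthase, was lowest at -1.96 and DFR1, for dihydroflavonol reductase, highest at 0.39. F3H, whose flavanone hydroxylase draws on the naringenin branch, was at -0.76 and FLS1, for flavonol synthase, at -0.88. Of the regulators, MYB29 (0.03), whose synonym GmMYB29A2 is that of a factor known for glyceollin gene activation, and MYB176 (-0.01), known for CHS8 activation, were near 0 by their brightest sets, and another MYB29 set was at -0.34.

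**Figure D4:**
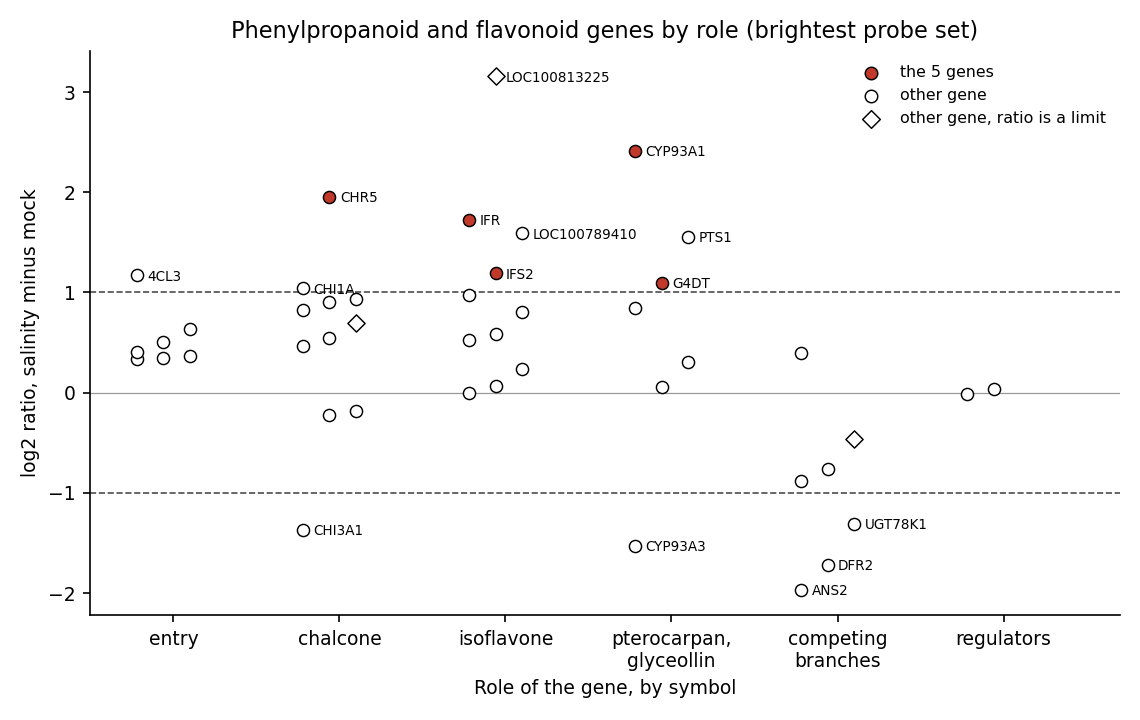
Log2 ratio (salinity minus mock) of phenylpropanoid and flavonoid genes by role, 1 point per measured gene from its brightest probe set, with the 5 genes in red, limits as diamonds and dashed lines at 2-fold. The entry genes all lie above 0, and 6 of the 7 genes of the competing branches lie below 0, ANS2 the lowest at -1.96.

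In ratio alone, over the 2 arrays, the genes nearest to each of the 5 among 916 with a name beyond a locus number and signals above background were of varied kinds. CYP93A1 (2.41) lay next to SUT1 (2.46) and MYB124 (2.51), and CHR5 (1.96) next to NAC3 (1.99) and PM3 (1.91). IFR (1.73) lay next to MIPS4 (1.73) and HSP90A1 (1.71), IFS2 (1.19) next to GLYI-6 and GASA4 (both 1.19), and G4DT (1.10) next to TENA_E (1.09) and EXP1 (1.11). With 2 arrays, likeness is no more than a small distance between ratios.

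In the gene order of the RefSeq assembly Glycine_max_v4.0, used for neighbourhood alone, 50 genes lie within 5 places of the 5 genes, and 3 of them were measured. The gene next to G4DT, LOC100788426, had 2 plain sets at log2 ratios of 1.71 and 1.36, detailed here after their values were seen. Its brighter set read 10.15 in log2 signal on the salinity array, against 8.44 on the mock array (3.27-fold). The other 2 measured neighbours, both near CYP93A1, were at 0.08 and 0.04. IFS2 lies beside IOMT2, which had no ratio and is a different gene from LOC100813225 with its synonym iomt2. IFR lies 2 places from IFR1, which was below the bound on both arrays.

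Other probe sets also moved between the arrays. Of 48 probe sets for soybean ribosomal RNA, 42 were measured and 38 of those were higher on the salinity array, with a median log2 ratio of 0.85. Of 7 measured photosynthetic tissue markers, 6 lay below 0 (median -0.34, range -0.72 to 0.20), none differed 2-fold, and their summed linear signal was 61153 (salinity) and 80087 (mock). The 3 root markers, all above the bound on both arrays, lay between -0.17 and 0.41. Of 15 seed markers, 6 passed the bound under salinity and 3 under mock treatment, with summed signals of 6670 (salinity) and 7929 (mock), and the median log2 ratio of those measured was 0.31. Of these, KTI-2 (-0.19) and KTI-3 (-0.36) lay below 0 and the other 4 above. Of 18 nodule markers 8 passed the bound on each array, with N-36A at 1.23, ENOD55-2 at -1.76 and the others within 2-fold. The part of these differences in the ratios of the 5 genes was not tested. Probe sets for Phytophthora sojae, the pathogen that glyceollins act against, had a median log2 signal of 2.03 (salinity) and 2.02 (mock). The background bound was set from these sets together with those for the nematode, so their median had to lie below it. Of the 15820 sets for this pathogen, 1360 were measured. Past 2-fold, 18 of them had the greater signal under salinity and 23 under mock treatment. Whether the pathogen was present was not tested.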

How the data were processed

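Total RNA was extracted with Trizol and labelled with biotin, per the labels' protocols, which give 0.5 µg of RNA per time point for a pool and 10 µg for labelling. The text on the design also names 0 h samples, so whether the pools hold them is not settled. The deposited values are log2 signals that the authors made with MAS5, per the submitters' processing notes with no version; no later step is described there. The log base was taken from the values: unlogged with base 2, the means after trimming 2% at each end were 498.8 (salinity) and 498.5 (mock).

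The ratio is the log2 signal of salinity minus mock, as deposited, with signals below the bound raised to it. Gene names came from the platform annotation and the RefSeq table of Glycine_max_v4.0; 8677 probe sets had a single gene. The brightest probe set stood for a gene, or the next brightest measured one where that set was below the bound on both arrays. Every probe set of the 5 genes is named, with all genes of the isoflavone and pterocarpan lists and the highest and lowest of the others, and the 2 nearest genes in ratio. G4DT has the synonym PT2 and was kept out of the root markers. The members and lists were chosen with earlier results of these data known. No probe, promoter or protein sequences were used here, and the assembly served for names and gene order alone, without coordinates. Calculations used Python 3.11.15, pandas 2.3.3 and statsmodels 0.14.6, and functions were tested on simulated data. The number of arrays limits the precision.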

Additional observations from a re-analysis of the deposited data

How the results depend on the processing

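No paired analysis was possible because each group holds 1 array. Replicates could not be left out for the same reason. The 8 ratios were recomputed under 7 other settings: 3 scalings (loess, quantile normalization, median centring), a bound at the 99th or the 90th percentile, no floor at all, and no floor but 16 added to the signal before the log2. All 56 values kept their direction and moved by less than 0.295, which is the SD of 0.418 for the difference between 2 probe sets of a gene divided by the square root of 2. Part of this was fixed in advance. The bound at either percentile and the lack of a floor left all 8 ratios unchanged, since these sets lay above every bound. Only the scalings and the added 16 could move them. With 16 added, the plain sets of CYP93A1 (0.97) and IFR (0.92) fell short of 2-fold, which left 6 of 8 past it, while under the other 6 settings all 8 were. Leaving out marked probe sets kept the 3 plain sets, of IFR, CYP93A1 and G4DT, all past 2-fold, and no set of CHR5 or IFS2. In that setting 3 of the other pathway genes were at least 2-fold higher, against 5, since CHI1A and PTS1 have marked sets alone. Over 9 settings the median of the other pathway genes lay between 0.35 and 0.44, and the count at least 2-fold lower was 4 or 5.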
